A study of Homo sapiens with 9 samples.

Results

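The genes described here are 10 known targets of the transcription factor p53 and of cell stress, measured in LNCaP prostate cancer cells under androgen and the plant compound celastrol. They were taken as a list: CDKN1A, MDM2, GDF15, GADD45A, SESN1, CCNG1, TP53I3, PLK3, FAS and TNFRSF10B. LNCaP is an androgen-responsive line from a lymph node metastasis of prostate cancer, and celastrol is a triterpenoid of the thunder god vine. All 10 were among the 12165 genes analysed, and they were measured by 20 of the 22215 probe sets on the arrays, counting probe sets annotated to 1 gene. LNCaP cells were kept for 2 days in medium with 10% serum stripped of its steroids by charcoal, so that all groups were androgen-starved. They then received 1 nM of the synthetic androgen R1881 together with 1.25 µM celastrol, 1 nM R1881 with DMSO, or vehicle, which was ethanol and DMSO, with 3 arrays per group. Treatment lasted 24 h on the celastrol and the vehicle arrays, while for the androgen arrays the descriptions give 24 h and the titles 6 h. This conflict touches every comparison with the androgen arrays, and the comparison of androgen plus celastrol with vehicle is free of it. That comparison changes R1881 and celastrol together, and no group received celastrol without R1881.

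The protein p53 is a transcription factor that accumulates when DNA or cell metabolism is disturbed, and LNCaP cells are known to carry the wild-type form. Its targets halt the cell cycle, repair DNA, buffer oxidants and, through membrane receptors and mitochondrial proteins, prepare cell death, while MDM2 closes a negative feedback loop. Several of these genes also answer to other signals: GDF15, GADD45A and TNFRSF10B are known targets of the integrated stress response, a programme of the factors ATF4 and DDIT3.

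The treatments were visible in marker genes. The oxidant-induced enzyme HMOX1 rose by 6.27 ± 0.26 on the log2 scale with celastrol over androgen alone (limma, adjusted p = 4.38e-06), and KLK3, which encodes prostate-specific antigen, rose by 2.15 ± 0.08 with androgen over vehicle (adjusted p = 9.17e-07). Of the prostate luminal markers 6 were measured, with single values between 115 and 15900 intensity units. The 9 measured markers of blood, endothelial, stromal and basal cells lay between 25.7 and 114, and their sum was 353 to 368 in androgen plus celastrol, 331 to 413 in androgen and 358 to 580 in vehicle. Among them COL1A1 rose by 0.42 ± 0.12 with celastrol over androgen (adjusted p = 0.0446), and COL3A1 fell by 0.43 (SE 0.10, adjusted p = 0.0175) with androgen over vehicle and by 0.35 (SE 0.10, adjusted p = 0.0299) with the combination over vehicle. The part of such cells in the results was not tested. Vehicle array 3 stood apart, with an upper quartile of intensity of 332.5 against 377.4 to 408.7 on the other arrays. The vehicle sum of 580 was also that of array 3. DES was at 114 there, against 57.6 and 36.7 on vehicle arrays 1 and 2, and KRT14 at 90.1 against 33.5 and 34.1. COL1A1, COL3A1 and KRT5 were lowest on array 3 among the vehicle arrays. Results that rest on it are given with and without it. Values are intensities on a linear scale, each ± is the standard error of the limma fit on the log2 scale, and adjusted p is the Benjamini-Hochberg value over 12165 genes with 0.05 as the threshold.

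**Figure D1:**
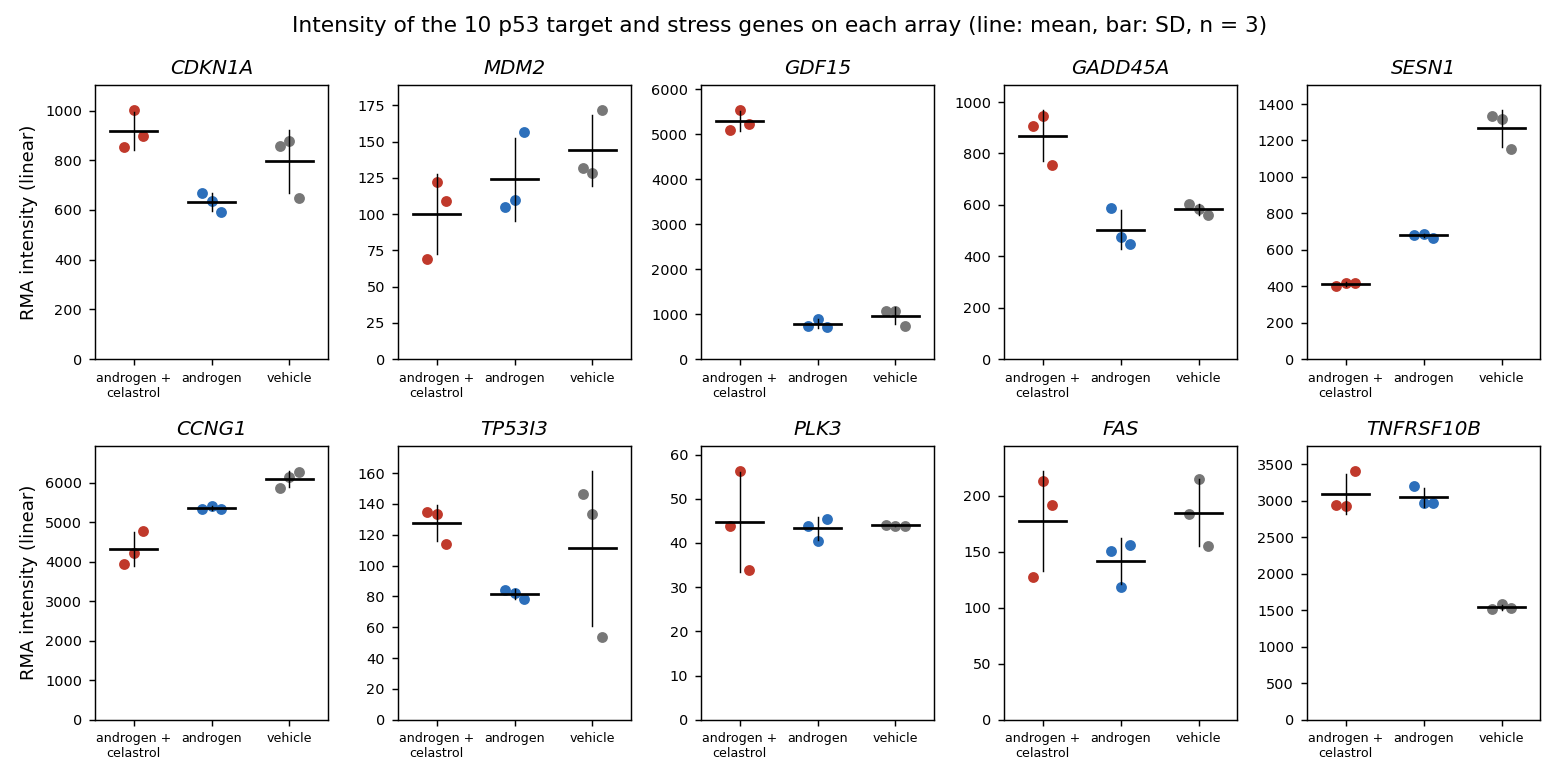
Intensity (linear scale, from 0) of the probe set that represents each of the 10 genes on each array, with androgen plus celastrol at the left, androgen in the middle and vehicle at the right (horizontal line: mean; vertical bar: SD, n = 3). GDF15 stood at 5100 to 5545 in androgen plus celastrol and at 1075 or less elsewhere, SESN1 stepped down from right to left, and TP53I3 spread widely in vehicle.

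The 10 genes did not move as one block. With celastrol over androgen alone, 3 rose (GDF15, GADD45A and CDKN1A), 2 fell (SESN1 and CCNG1) and 5 did not pass, where 16.2% of all genes passed, 9.0% rising and 7.24% falling. With androgen over vehicle, TNFRSF10B rose, SESN1 fell and 8 did not pass, where 13.0% of all genes passed, 7.17% rising and 5.84% falling. That split over all genes was 872 up and 711 down, and 1182 up and 529 down with each array's median subtracted. With androgen plus celastrol over vehicle, 3 rose (GDF15, TNFRSF10B and GADD45A), 2 fell (SESN1 and CCNG1) and 5 did not pass, where 23.3% of all genes passed, 13.3% rising and 10.0% falling. The median log2 difference of the 10 genes was 0.16 for celastrol over androgen, -0.26 for androgen over vehicle and 0.11 for the combination over vehicle, beside 0.02, -0.04 and -0.01 over all genes. The 3 comparisons share arrays in pairs, so their values are not independent of each other. Without vehicle array 3, the number of the 10 genes that fell with androgen was 4 (SESN1, CDKN1A, GDF15 and TP53I3) in place of 1.

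**Figure D2:**
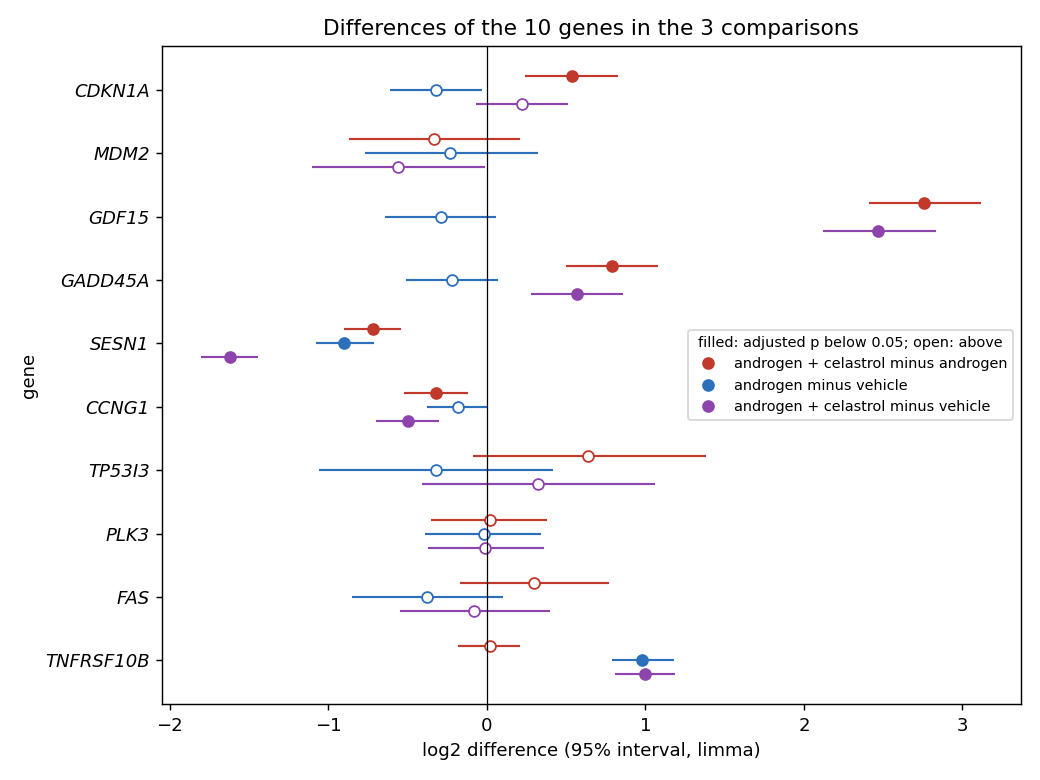
Log2 difference of each of the 10 genes (horizontal axis, with its 95% interval from limma) in the 3 comparisons. Filled points passed the threshold over all genes and open points did not. GDF15 lay at 2.76 and 2.47 in the comparisons with celastrol, SESN1 lay below 0 in all 3, and TNFRSF10B lay near 1 in both comparisons with vehicle and at 0.02 for celastrol over androgen.

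Cell cycle arrest was represented by CDKN1A, GADD45A and CCNG1, with the kinase PLK3. CDKN1A encodes p21, the inhibitor of cyclin-dependent kinases that carries much of the arrest by p53. Its intensity was 855, 1003 and 898 in androgen plus celastrol, 667, 638 and 594 in androgen, and 859, 878 and 649 in vehicle. All celastrol arrays were above all androgen arrays, while vehicle array 3 lay with the androgen arrays and the other two vehicle arrays with the celastrol arrays. CDKN1A rose by 0.54 ± 0.13 with celastrol over androgen (adjusted p = 0.0218), a 1.45-fold difference. With 1 array left out, this call was lost without androgen plus celastrol array 2 (adjusted p = 0.0839) or 3 (0.0572), or androgen array 1 (0.0507), 2 (0.0687) or 3 (0.0840), with differences of 0.47 to 0.57. Androgen over vehicle was at -0.32 ± 0.13 (adjusted p = 0.173). Without vehicle array 3 it was -0.46, past the threshold (adjusted p = 0.0137). Quantile (-0.39, adjusted p = 0.0460) and cyclic loess normalization (-0.36, adjusted p = 0.0453) also carried it past. Androgen plus celastrol and vehicle overlapped, with a difference of 0.22 ± 0.13 (95% interval -0.07 to 0.51, adjusted p = 0.267).

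GADD45A, a small protein that binds the replication clamp PCNA and cyclin B1-bound kinase and slows entry into mitosis, was at 905.5, 946 and 755.5 in androgen plus celastrol, 589, 474 and 448.5 in androgen, and 604.5, 582 and 562 in vehicle. The celastrol arrays stood above all others, and androgen and vehicle overlapped. GADD45A rose by 0.79 ± 0.13 with celastrol over androgen (adjusted p = 0.00307) and by 0.57 ± 0.13 with the combination over vehicle (adjusted p = 0.0105). The call against androgen held under all 19 alternative settings. The call against vehicle was lost with the replicate number as a block within those 2 groups (adjusted p = 0.0565), a block that the data do not bear out for that pair of groups. Androgen over vehicle was at -0.22 ± 0.13 (adjusted p = 0.362).

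CCNG1 encodes cyclin G1, which brings a phosphatase to MDM2 and so tempers p53. It was at 3944, 4231 and 4779 in androgen plus celastrol, 5334, 5424 and 5337 in androgen, and 5860, 6155 and 6274 in vehicle. The 3 groups were ordered without overlap, lowest in androgen plus celastrol and highest in vehicle. CCNG1 fell by 0.32 on the log2 scale with celastrol over androgen (SE 0.09, adjusted p = 0.0385) and by 0.50 with the combination over vehicle (SE 0.09, adjusted p = 0.00306). Androgen and vehicle, neighbours in this order, differed by -0.18 ± 0.09, which did not pass (adjusted p = 0.254). The fall against androgen alone was close to the threshold. It was lost without androgen plus celastrol array 1 (adjusted p = 0.107) or 2 (0.114), androgen array 1 (0.104), 2 (0.118) or 3 (0.103), or vehicle array 1 (0.0599) or 2 (0.0571). Fits with the replicate number as a block (0.0569), with only the 2 groups (0.0512) and with the block within them (0.105) lost it too, and over all 22215 probe sets its adjusted p was 0.0508. The fall against vehicle was lost with the replicate number as a block within those 2 groups (adjusted p = 0.0673). PLK3, a stress-responsive kinase of the polo family, was measured by a pair of probe sets at 31.6 to 56.4, at the 24.4th and 34.5th percentile of all probe sets. Its differences were between -0.02 and 0.07 in all comparisons and none passed. The 95% interval of the representative set was -0.35 to 0.38 for celastrol over androgen.

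The feedback gene MDM2 encodes the ubiquitin ligase that marks p53 for degradation. Its brightest set, 217373_x_at, was at 68.9, 122 and 109 in androgen plus celastrol, 105, 110 and 157 in androgen, and 132, 128 and 172 in vehicle. All celastrol arrays were below all vehicle arrays, and the androgen arrays overlapped both. The differences were -0.33 ± 0.24 for celastrol over androgen, -0.23 ± 0.24 for androgen over vehicle and -0.56 ± 0.24 for the combination over vehicle (95% interval -1.10 to -0.01, adjusted p = 0.138), none past the threshold. With 1 array left out these MDM2 values ran from -0.49 to -0.08, -0.41 to -0.09 and -0.72 to -0.31, the smallest without androgen plus celastrol array 1, vehicle array 3 and androgen plus celastrol array 1. With the 4 sets averaged they were -0.01, -0.18 and -0.19. The other 3 sets lay between 25.9 and 185 and disagreed in sign: 211832_s_at was at -0.53 ± 0.23 for the combination over vehicle and 205385_at at 0.34 ± 0.18. None of the 4 sets passed in any comparison, where 12.6% of all probe sets passed for celastrol over androgen, 10.5% for androgen over vehicle and 19.0% for the combination over vehicle.

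GDF15 encodes a secreted hormone of the TGF-beta family that is released under mitochondrial and metabolic stress. Its intensity was 5100, 5545 and 5231 in androgen plus celastrol, 731, 900 and 716 in androgen, and 1075, 1075 and 745 in vehicle. The celastrol arrays lay far above the rest, while androgen and vehicle overlapped. GDF15 rose by 2.76 ± 0.16 with celastrol over androgen, or 6.80-fold (adjusted p = 2.35e-05), the 9th largest rise of all genes, and by 2.47 ± 0.16 with the combination over vehicle, or 5.56-fold (adjusted p = 1.21e-05). Both calls held under every alternative. Androgen over vehicle was at -0.29 ± 0.16 (adjusted p = 0.327) and, without vehicle array 3, at -0.47 (adjusted p = 0.0250). These values come from 221577_x_at, whose suffix marks sets with probes that can also bind other transcripts. The second set of the gene, 221576_at, lay at 24.1 to 36.8, at the 5.0th percentile of all probe sets, with 0.29 ± 0.13 for celastrol over androgen (adjusted p = 0.222 over all probe sets). With both sets averaged, the GDF15 differences were 1.53 and 1.33, both still past the threshold. By Pearson's r over the log2 values of the 9 arrays, the 3 genes most like GDF15 were MT1X (0.996), AKR1C1 (0.995) and HMOX1 (0.994), which encode a metallothionein, an aldo-keto reductase and heme oxygenase. For CDKN1A they were SMAD1 (0.987), DERA (0.976) and SYNM (0.965), and for MDM2 they were ST6GALNAC2 (0.966), NOTCH4 (0.962) and EHMT1 (0.960). The points of such a correlation share 3 groups, so it describes the group pattern.

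The 250 bases before the annotated start of GDF15 are shown because it moved most of the 10 genes. They lie at chr19:18385908-18386157 on the plus strand of GRCh38.p14, from RefSeq. Capitals mark an antioxidant response element (TGANNNNGC) and the TATA box (TATAAA).
GDF15: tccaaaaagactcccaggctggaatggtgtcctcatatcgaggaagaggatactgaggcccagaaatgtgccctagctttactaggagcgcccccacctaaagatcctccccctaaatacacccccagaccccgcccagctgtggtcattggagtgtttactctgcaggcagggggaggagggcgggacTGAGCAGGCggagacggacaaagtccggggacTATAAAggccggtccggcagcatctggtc
Searched on both strands, the antioxidant element was found in 35.2% and the TATA box in 10.7% of the 35116 promoter windows of this length, so the letters of the antioxidant element are common. Neither the ATF4-CEBP composite element (TGATGNAA, in 3.14% of windows) nor the p53 half-site (RRRCWWGYYY, in 5.57%) was found in this window. In these letters R is A or G, W is A or T, Y is C or T, and N is any base. Windows of 8 of the 10 genes were searched. GADD45A and TNFRSF10B were not searched, so the presence of these motifs before their starts was not tested. The composite element was found in the window of PLK3. The p53 half-site was found in windows of SESN1 and FAS. The antioxidant element was also found in windows of MDM2, SESN1 and FAS, so it does not set GDF15 apart. Only exact matches were counted, so a window without a match can still hold a site that differs in some bases. Sites outside these windows were not searched, so a gene without a match can have a site elsewhere.

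SESN1 and TP53I3 are the redox and metabolic members. SESN1 encodes sestrin 1, which restrains the growth kinase complex mTORC1 and supports antioxidant defence. It was at 400.5, 416 and 419 in androgen plus celastrol, 682, 687 and 667 in androgen, and 1332, 1319 and 1151 in vehicle. No array of one group overlapped another group, and each step down was larger than the spread within groups. SESN1 fell by 0.72 with celastrol over androgen (SE 0.08, adjusted p = 0.000515) and by 0.90 with androgen over vehicle (SE 0.08, adjusted p = 0.000117). The combination over vehicle was down by 1.62 (SE 0.08, adjusted p = 4.56e-06), to 0.326 of the vehicle level, the 52nd largest fall of all genes. All 3 calls held under every alternative. Its single set, 218346_s_at, is not tied here to one of the 3 annotated starts.

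The p53 half-site of SESN1 lay 49 to 40 bases before one of its annotated starts, and that of FAS 122 to 113 bases before one of its starts. Both are shown with 10 bases on either side, the half-site in capitals, from RefSeq on GRCh38.p14, to set beside the measured levels of these genes. SESN1 is on the minus strand at chr6:109009018-109009047 and FAS on the plus strand at chr10:88991299-88991328.
SESN1: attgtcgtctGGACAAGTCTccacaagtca
FAS: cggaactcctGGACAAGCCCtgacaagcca
SESN1, with such letters, fell in all 3 comparisons and FAS, also with them, did not pass in its representative set. A match describes letters and not binding.

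TP53I3 encodes a quinone oxidoreductase known as PIG3, which produces reactive oxygen species after p53 activation. It was at 135, 134 and 114 in androgen plus celastrol, 84.4, 82.2 and 78.3 in androgen, and 147, 133.5 and 53.9 in vehicle. All celastrol arrays were above all androgen arrays, and vehicle array 3 lay below every other array while the remaining pair lay with or above the celastrol arrays. With all arrays nothing passed: 0.64 ± 0.32 for celastrol over androgen (adjusted p = 0.255), -0.32 ± 0.32 for androgen over vehicle (adjusted p = 0.639) and 0.32 ± 0.32 for the combination over vehicle (adjusted p = 0.516). Without vehicle array 3, celastrol over androgen stayed at 0.64 and passed (adjusted p = 0.00143), androgen over vehicle was -0.78 and passed (adjusted p = 0.00115), and the combination over vehicle was -0.14 (adjusted p = 0.393). The celastrol difference of TP53I3 also passed when only the androgen plus celastrol and androgen arrays were fitted (adjusted p = 0.00364). CDKN1A and GDF15 were also lowest in vehicle array 3 among the vehicle arrays. The part of that array in these results was not tested beyond leaving it out.

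**Figure D3:**
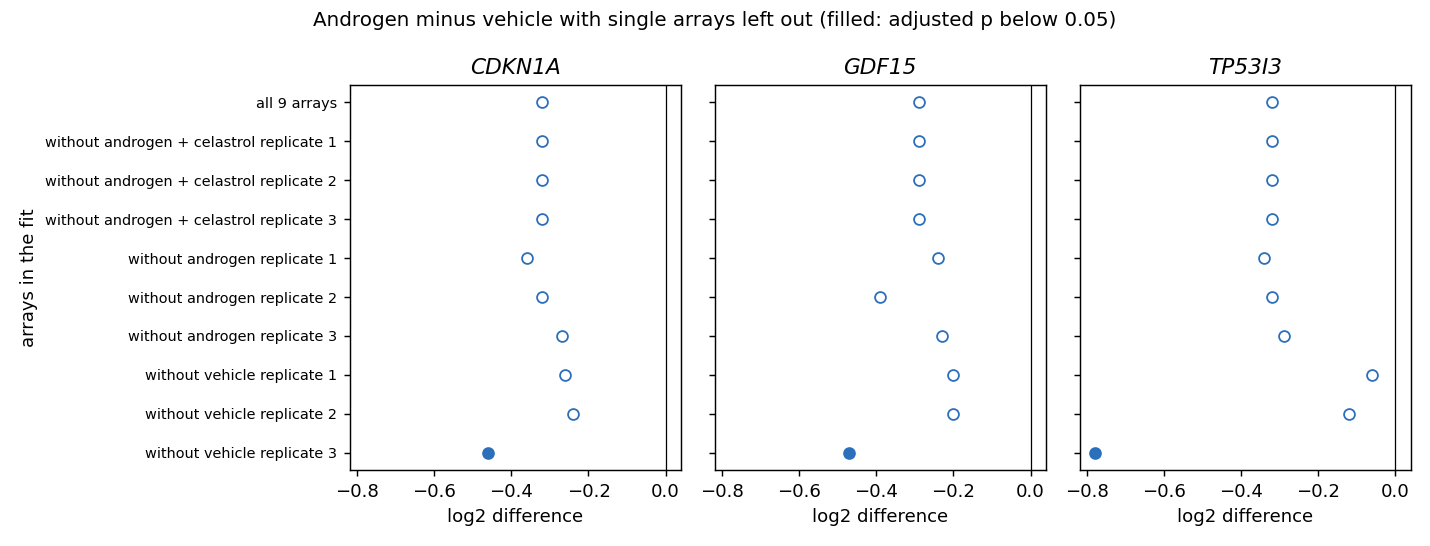
Log2 difference of androgen minus vehicle (horizontal axis) for CDKN1A, GDF15 and TP53I3 with all 9 arrays and with each array left out in turn (rows), filled where the adjusted p was below 0.05. Only the row without vehicle array 3 is filled, at -0.46, -0.47 and -0.78.

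The death receptors FAS and TNFRSF10B are membrane proteins that recruit caspase 8 when their ligands bind. TNFRSF10B, also called DR5, binds the ligand TRAIL. Its brightest set, 209295_at, was at 2941, 2919 and 3410 in androgen plus celastrol, 3194, 2972 and 2970 in androgen, and 1520, 1582 and 1524 in vehicle. Both groups with androgen overlapped and stood above all vehicle arrays. TNFRSF10B rose by 0.98 ± 0.09 with androgen over vehicle, or 1.97-fold (adjusted p = 9.94e-05), and by 1.00 ± 0.09 with the combination over vehicle, or 2.00-fold (adjusted p = 6.09e-05). Celastrol over androgen was at 0.02 ± 0.09 (95% interval -0.18 to 0.21, adjusted p = 0.925), an interval that does not show the 2 groups to be alike. The other sets gave larger rises with androgen: 1.43 ± 0.12 for 209294_x_at and 1.26 ± 0.15 for 210405_x_at (adjusted p = 7.42e-05 and 0.000572 over all probe sets). The suffix of both, shared by 217373_x_at of MDM2 and the x_at sets of FAS, marks probes that can also bind other transcripts. Both rises of TNFRSF10B over vehicle held under every alternative.

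FAS, the receptor of FAS ligand, was at 128, 214 and 192 in androgen plus celastrol, 151, 119 and 156 in androgen, and 184, 215 and 155 in vehicle in its brightest set, 204780_s_at. The 3 groups overlapped, and the differences of 0.30 ± 0.21, -0.38 ± 0.21 and -0.08 ± 0.21 for celastrol over androgen, androgen over vehicle and the combination over vehicle did not pass. The dimmer set 204781_s_at was at 59.2, 65.1 and 71.5 in androgen plus celastrol, 75.3, 72.9 and 75.2 in androgen, and 92.4, 87.1 and 108 in vehicle, ordered without overlap. The set fell by 0.55 with the combination over vehicle (SE 0.11, adjusted p = 0.00622 over all probe sets), while 215719_x_at (-0.14 ± 0.12) and 216252_x_at (-0.26 ± 0.12) did not pass. Among all probe sets 19.0% passed in that comparison. The 4 sets of FAS disagreed in this call, and all lay within 48.5 to 215.

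**Figure D4:**
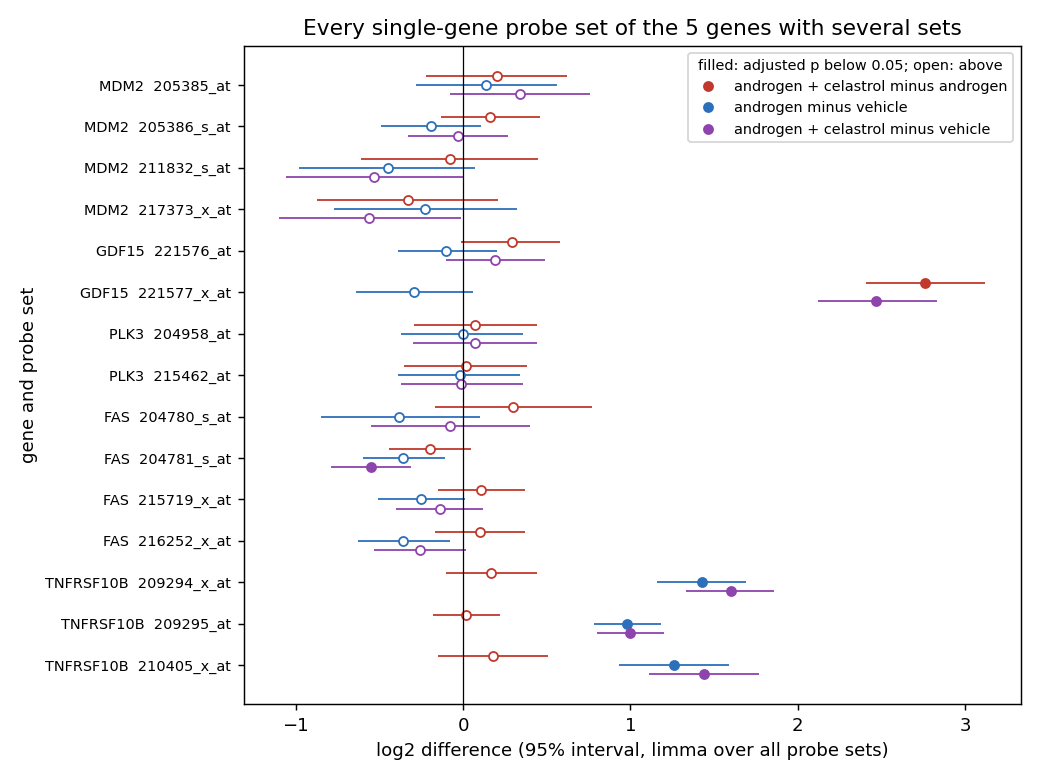
Log2 difference with its 95% interval (horizontal axis, limma over all probe sets) for each single-gene probe set of the 5 genes with several sets, in the 3 comparisons. All 3 TNFRSF10B sets are filled in both comparisons with vehicle, the GDF15 sets differ, and a single FAS set is filled, at -0.55.

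Partners of the death receptors were counted over 7 measured genes of a list of 11. In the order of the comparisons below, 1, 2 and 3 of them passed, where 16.2%, 13.0% and 23.3% of all genes did. With celastrol over androgen CASP8, the caspase the receptors activate, rose by 0.91 ± 0.14 (adjusted p = 0.00244) and the other 6 did not pass. Its difference was 0.54 with its probe sets averaged (adjusted p = 0.0341). With androgen over vehicle CFLAR, an inhibitor of that caspase, rose by 0.36 ± 0.10 (adjusted p = 0.0447), and BID, which links the receptors to mitochondria, fell by 0.93 (SE 0.13, adjusted p = 0.00130). The CFLAR call was lost without any 1 of the other arrays (adjusted p = 0.0599 to 0.161) except vehicle array 3, and with the replicate number as a block (0.0950). With the combination over vehicle CASP8 (0.92 ± 0.14) and CFLAR (0.40 ± 0.10) rose and BID fell by 1.02. There the CFLAR call was lost without androgen plus celastrol array 2 (adjusted p = 0.0663) or vehicle array 1 (0.0589) or 2 (0.0576). With probe sets averaged, CFLAR was at 0.14 for androgen over vehicle (adjusted p = 0.442) and at 0.04 for the combination over vehicle (0.812), and CASP8 was at 0.49 for the combination (0.0396). The median over the 7 genes was 0.03, 0.00 and 0.12 in these comparisons.

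Of a list of 14 paralogues of the 10 genes 11 were measured. In the order of the comparisons below, 2, 1 and 3 of them passed, where 16.2%, 13.0% and 23.3% of all genes did. CDKN1B, the p27 inhibitor related to CDKN1A, rose by 0.48 ± 0.08 with celastrol over androgen (adjusted p = 0.00299), and PLK1, a kinase of mitosis, fell by 0.92 (SE 0.14, adjusted p = 0.00273). With androgen over vehicle CCNG2, the relative of CCNG1, fell by 1.24 (SE 0.10, adjusted p = 5.28e-05) and no other relative passed. With the combination over vehicle CCNG2 fell by 1.38 (SE 0.10) and PLK1 by 0.80 (SE 0.14), while CDKN1B rose by 0.25 ± 0.08 (adjusted p = 0.0429), a call lost without any 1 of the 9 arrays (adjusted p = 0.0598 to 0.132). The median over the list was -0.06, 0.12 and -0.13 in the 3 comparisons.

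Of a list of 40 other p53 targets 28 were measured. With celastrol over androgen 3 rose and 1 fell, and the other 24 missed the threshold, where 9.0% of all genes rose and 7.24% fell. The median of the 28 was 0.10. The DNA damage sensor XPC rose by 0.61 ± 0.08 (adjusted p = 0.00160), the mitochondrial death protein PMAIP1, or NOXA, by 0.59 ± 0.15 (adjusted p = 0.0310) and SUSD6 by 0.49 ± 0.12 (adjusted p = 0.0203). PERP, a desmosome protein, fell by 0.29 (SE 0.08, adjusted p = 0.0429). The call of XPC held under every alternative. Without any 1 androgen plus celastrol or androgen array, the call of PMAIP1 was lost (adjusted p = 0.0608 to 0.109). That of SUSD6 was lost without any 1 of these 6 except androgen array 1 (0.0558 to 0.0677), and that of PERP without any 1 of the 6 or vehicle array 1 (0.0633 to 0.143). Of the 28 genes, 1 rose without androgen plus celastrol array 2, androgen array 2 or androgen array 3, and 5 without vehicle array 3. NINJ1, at 0.41 ± 0.13 with all arrays (adjusted p = 0.0600), passed without vehicle array 3 (0.0251). It passed under 10 of the 19 alternatives. The death gene BAX was at -0.45 ± 0.24 (adjusted p = 0.296) and BBC3, or PUMA, at 0.09 ± 0.12 (adjusted p = 0.716). Without androgen plus celastrol array 1, BAX was at -0.73 and passed (adjusted p = 0.0393).

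With androgen over vehicle 2 of the 28 rose and 4 fell, and 22 missed the threshold, where 7.17% of all genes rose and 5.84% fell. The median of the 28 was -0.08. The phosphatase PPM1D, which shuts off p53 signalling, rose by 1.12 ± 0.13 (adjusted p = 0.000431) and PERP by 0.30 ± 0.08 (adjusted p = 0.0420). SUSD6 fell by 1.30 (SE 0.12, adjusted p = 0.000117), the DNA damage protein DDB2 by 0.96 (SE 0.26, adjusted p = 0.0453), NINJ1 by 0.69 (SE 0.13, adjusted p = 0.00639) and XPC by 0.37 (SE 0.08, adjusted p = 0.0197). With the replicate number as a block, PERP (adjusted p = 0.0604) and DDB2 (0.0605) lost their calls. PERP also lost its call without any 1 array except androgen plus celastrol array 2 and vehicle array 3 (adjusted p = 0.0525 to 0.141). DDB2 also lost it without androgen plus celastrol array 2, any androgen array, or vehicle array 1 or 2 (0.0692 to 0.152), and XPC without androgen array 2 or 3 or vehicle array 1 (0.0690 to 0.0815). Of the 28 genes, 7 fell without vehicle array 3, and 2 fell without androgen array 2 or 3 or vehicle array 1.

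With the combination over vehicle 3 of the 28 rose and 3 fell, and 22 missed the threshold, where 13.3% of all genes rose and 10.0% fell. The median of the 28 was 0.04. PMAIP1 rose by 1.02 ± 0.15 (adjusted p = 0.00141), PPM1D by 0.82 ± 0.13 (adjusted p = 0.00161) and AEN by 0.56 ± 0.15 (adjusted p = 0.0307). DDB2 fell by 1.36 (SE 0.26, adjusted p = 0.00542), SUSD6 by 0.80 (SE 0.12, adjusted p = 0.00117) and ZMAT3 by 0.61 (SE 0.19, adjusted p = 0.0447). AEN lost its call without androgen plus celastrol array 1 or 3, androgen array 2, or vehicle array 1 or 3 (adjusted p = 0.0532 to 0.105). ZMAT3 lost it without any 1 array except androgen plus celastrol array 3 (0.0633 to 0.115), and was at -0.38 without androgen plus celastrol array 1. Of the 28 genes, 6 fell without vehicle array 3. NINJ1 was among them at -0.38 (adjusted p = 0.0460), against -0.28 ± 0.13 with all arrays (0.152).

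**Figure D5:**
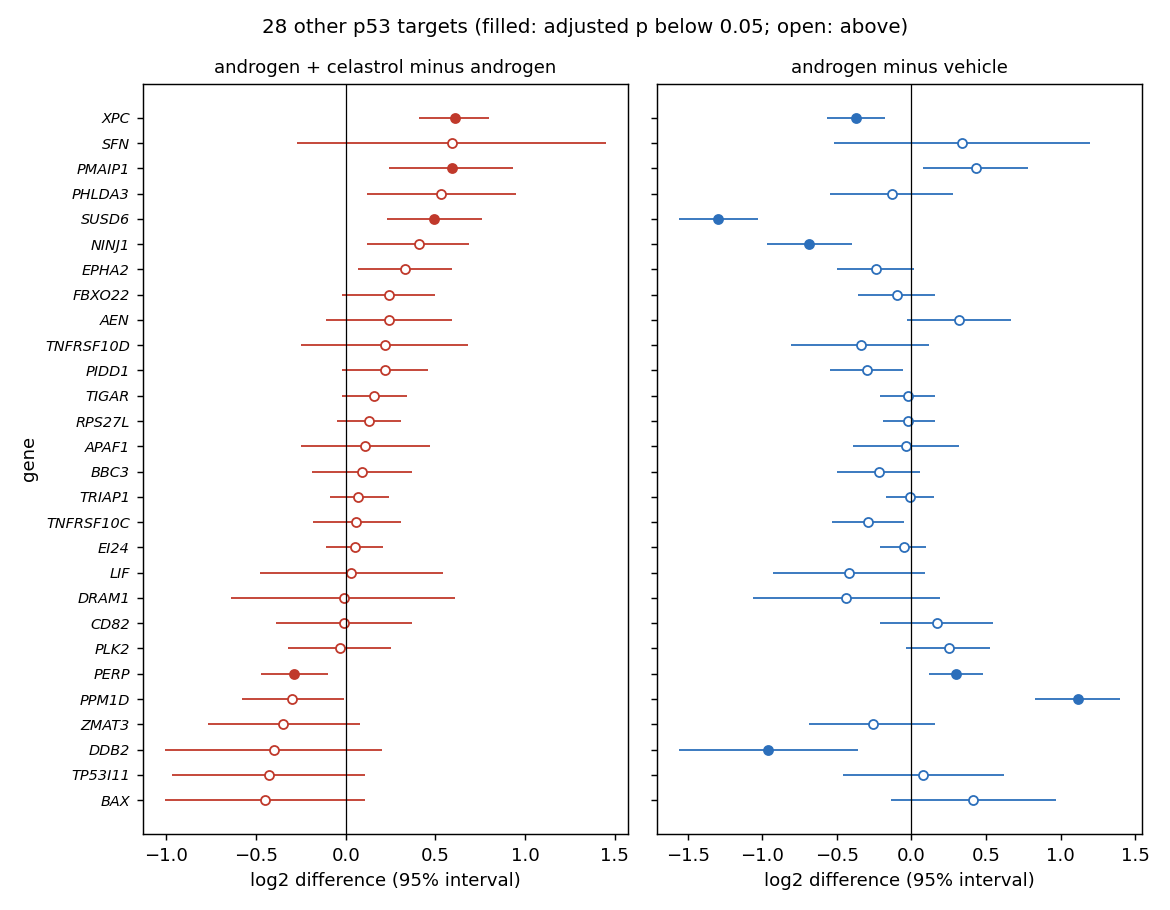
Log2 difference with its 95% interval (horizontal axis) of the 28 other measured p53 targets for androgen plus celastrol minus androgen (left) and androgen minus vehicle (right), ordered by the left panel, filled where the adjusted p was below 0.05. At the left XPC, PMAIP1 and SUSD6 are filled above 0 and PERP below it, and at the right SUSD6 and PPM1D lie farthest from 0 at -1.30 and 1.12.

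Of 16 listed regulators of p53, 13 were measured, and the gene of p53 itself was not analysed here. The kinase HIPK2 fell by 0.66 (SE 0.19, adjusted p = 0.0446) with celastrol over androgen, as 1 of 13, where 7.24% of all genes fell. It lost its call without androgen plus celastrol array 1 or 2, any androgen array, or vehicle array 1 or 2 (0.0604 to 0.143), and without androgen plus celastrol array 3 the count that fell was 2. With androgen over vehicle 2 of the 13 fell, where 5.84% of all genes did. CDKN2A, the locus of the MDM2 inhibitor ARF, fell by 0.38 (SE 0.08, adjusted p = 0.0150) and the coactivator CREBBP by 0.30 (SE 0.08, adjusted p = 0.0399). CDKN2A lost its call without androgen array 1 or 2 (adjusted p = 0.0670 and 0.0501), and CREBBP without any 1 array except androgen plus celastrol array 1 and vehicle array 2 (0.0637 to 0.142) and with the replicate number as a block (0.0870). With probe sets averaged, CDKN2A was at -0.21 (adjusted p = 0.132) and CREBBP at -0.14 (0.353), and neither passed. With the combination over vehicle 1 of the 13 rose and 1 fell, where 13.3% and 10.0% of all genes did. CDKN2A fell by 0.49 (SE 0.08, adjusted p = 0.00246), a call lost with probe sets averaged (-0.19, adjusted p = 0.106) and with the block within the 2 groups (0.0817). USP7, a deubiquitinase of MDM2 and p53, rose by 0.35 ± 0.10 (adjusted p = 0.0403), a call lost without any 1 array except vehicle array 2 (0.0520 to 0.115) and with probe sets averaged (0.14, adjusted p = 0.238). Without androgen plus celastrol array 3, HIPK2 was at -0.51 and passed there (adjusted p = 0.0367), and 3 of the 13 fell. MDM4, the partner of MDM2, was at 0.29 ± 0.13, 0.06 ± 0.13 and 0.35 ± 0.13 and did not pass.

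Genes of the integrated stress response, which overlaps with the p53 list in GDF15, GADD45A and TNFRSF10B, were counted beside it. Of 9 listed genes 8 were measured. With celastrol over androgen 7 rose and none fell, with a median of 1.5, and in the combination over vehicle also 7 rose and none fell, with a median of 1.6. Of all genes 9.0% rose and 7.24% fell in the first of these comparisons, and 13.3% rose and 10.0% fell in the second. DDIT3, the factor known to act on the TNFRSF10B promoter, rose by 2.70 ± 0.15 with celastrol over androgen (adjusted p = 1.93e-05) and by 2.11 ± 0.15 with the combination over vehicle. The others with large rises were CHAC1 (1.97 ± 0.10), TRIB3 (1.88 ± 0.21), ATF3 (1.62 ± 0.18) and DDIT4 (1.38 ± 0.10) with celastrol over androgen. In that same comparison GDF15 was at 2.76, GADD45A at 0.79 and TNFRSF10B at 0.02. With androgen over vehicle 2 of the 8 rose and 1 fell, where 7.17% and 5.84% of all genes did. ATF3 rose by 0.73 ± 0.18 (adjusted p = 0.0307) and CHAC1 by 0.38 ± 0.10 (adjusted p = 0.0436), while DDIT3 fell by 0.60 (SE 0.15, adjusted p = 0.0261), with a median of -0.04. For ATF3 the same value, 595.6, stood on all 3 androgen arrays, so its spread can be understated. ATF3 lost its call for androgen over vehicle without androgen plus celastrol array 2 or 3 or any androgen array (0.0514 to 0.0985). CHAC1 lost it without any 1 array except androgen plus celastrol array 1 and androgen array 3 (0.0576 to 0.161). DDIT3 lost it without androgen array 1 or 3 or vehicle array 1 or 2 (0.0504 to 0.0862), and without vehicle array 3 DDIT4 passed downwards at -0.36 (adjusted p = 0.0466).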

How the data were processed

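RNA of 9 LNCaP samples was hybridised as biotin-labelled cRNA to Affymetrix arrays, per the labels' protocols. The deposited table holds linear intensity values, and RMA is the tool that the submitters' processing notes name. The sources used here do not give its version or the probe definitions. The same value stood on more than 1 array for 44.3% of probe sets, such as GDF15 in vehicle arrays 1 and 2, so that spreads of such sets can be understated. RMA usually brings arrays to a common distribution, which hides differences in total RNA. The deposited values were not at a common distribution, with array medians of 72.2 to 80.2 and upper quartiles of 332.5 to 408.7. Whether differences in total RNA were hidden was not tested. No detection calls or scan dates were used, and the number of arrays limits the precision.

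Log2 was taken with a pseudocount of 0. Of 22215 probe sets, 19724 had 1 gene, 568 several and 1923 none listed. Each of 12165 genes was represented by its brightest set over the 9 arrays. All arrays were fitted with limma 3.58.1 in R 4.3.3, and the 3 comparisons came from this fit, with Benjamini-Hochberg adjustment over genes. A second fit over all probe sets gave the values of single sets. The fit was tested on simulated data. The labels call the arrays biological replicates without saying how the cultures were separated, so p-values measure the spread between them. Arrays of the same number correlated in their deviations from group means at 0.40, 0.37 and 0.63 for androgen and vehicle, but not in every pair for the other comparisons. Unlike numbers correlated as well, androgen array 1 with vehicle array 2 at 0.41 and androgen array 2 with vehicle array 1 at 0.30. Array 3 of either group against array 1 or 2 of the other lay at -0.57 to -0.40. These correlations therefore do not establish that androgen and vehicle arrays were paired by number. Fits without the block are printed, and the block changed no call of the 10 genes for androgen over vehicle.

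The members and lists were chosen with earlier results of these data known. Named were all 10 genes, and per list and comparison the 5 largest rises and falls past the threshold, save for the prostate luminal markers. Of those markers only KLK3 was named, although others passed. BAX, BBC3, PMAIP1, PPM1D, MDM4 and HMOX1 were also named. List genes outside the 12165 were not analysed here. Promoter windows were the 250 bases before each RefSeq start.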

Additional observations from a re-analysis of the deposited data

How the results depend on the processing

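Each comparison was refitted under 19 alternatives: a replicate block, only the 2 groups compared with and without that block, probe sets averaged per gene, other scalings, dim genes left out, a pseudocount of 16, a variance trend, and each array left out. For the 10 genes, 517 of 564 refitted values kept their direction and side of the threshold, 17 lost a call, 8 gained one and 22 changed sign, each of these last in a difference that had not passed. The cause of these changes was not tested.

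For celastrol over androgen, all genes that rose ran from 711 to 1512 and all that fell from 550 to 1155 with 1 array left out. Of the 10 genes 1 fell, in place of 2, with the replicate block, with only the 2 groups and with both, and 1 to 2 with 1 array left out. Of the other p53 targets 5 rose, in place of 3, with those 3 settings and with cyclic loess, and 1 to 5 with 1 array left out. Those that fell numbered 0 with the block in either fit or with array medians subtracted, 2 with quantile normalization, and 0 to 1 with 1 array left out. Of the regulators 0 fell with only the 2 groups, with or without the block, and with quantile or loess normalization, and 0 to 2 with 1 array left out.

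For androgen over vehicle, all genes that fell ran from 433 to 972 with 1 array left out. With the replicate block, 789 genes rose and 617 fell. Of the 10 genes 2 fell, in place of 1, with quantile or loess normalization, and 1 to 4 with 1 array left out. Of the other targets 1 rose, in place of 2, with the block, with only the 2 groups and with both. With 1 array left out 1 to 2 of them rose and 2 to 7 fell. Of the regulators 1 rose, in place of 0, with the block within the 2 groups, averaged probe sets, medians subtracted, dim genes left out or the variance trend. Those that fell numbered 1 with the block, only the 2 groups, both, quantile or loess normalization, 0 with averaged probe sets or medians subtracted, and 0 to 2 with 1 array left out.

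For the combination over vehicle, the replicate block within the 2 groups gave 682 genes that rose and 417 that fell, in place of 1622 and 1218. There 1 of the 10 genes fell and 1 other target rose. Other targets that fell numbered 2 to 6 with 1 array left out. Of the regulators 0 rose with the block, only the 2 groups, both, averaged probe sets or quantile normalization, and 0 to 1 with 1 array left out. Those that fell numbered 0 with the block within the 2 groups or averaged probe sets, 3 with quantile normalization, 2 with loess, dim genes left out, the pseudocount or the trend, and 1 to 3 with 1 array left out.

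Signs turned as follows, with array medians subtracted, quantile and loess normalization in that order where 3 values stand. PLK3 was at -0.0033, -0.02 and -0.01 for celastrol over androgen, 0.06, 0.07 and 0.04 for androgen over vehicle, and 0.05, 0.05 and 0.03 for the combination over vehicle. PLK3 in the last comparison was also at 0.03 with averaged probe sets and 0.0015 with the pseudocount. TNFRSF10B was at -0.0026, -0.06 and -0.0029 for celastrol over androgen. With averaged probe sets BID was at 0.02, CDKN2A at 0.01, CFLAR at -0.10, CREBBP at -0.09 and USP7 at -0.05 for celastrol over androgen, CASP8 at -0.06 for androgen over vehicle, and HIPK2 at 0.05 for the combination over vehicle. With quantile and loess normalization USP7 was at -0.01 in both for celastrol over androgen, CASP8 at -0.03 and -0.02 for androgen over vehicle, and PERP at -0.09 and -0.07 for the combination over vehicle. BAX was at 0.02 there with medians subtracted.

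With 1 array left out, these differences ran across 0. For celastrol over androgen PLK3 ran from -0.16 to 0.20, TNFRSF10B from -0.05 to 0.06, BID from -0.20 to 0.03, CFLAR from -0.01 to 0.08 and USP7 from -0.03 to 0.07. For androgen over vehicle PLK3 ran from -0.06 to 0.02, CASP8 from -0.09 to 0.16, HMOX1 from -0.41 to 0.06 and MDM4 from -0.05 to 0.15. For the combination over vehicle TP53I3 ran from -0.14 to 0.59, PLK3 from -0.19 to 0.18, FAS from -0.23 to 0.14, BAX from -0.31 to 0.19 and PERP from -0.04 to 0.06.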
